A study of Mus musculus with 2 samples.

Results

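Pleiotrophin (Ptn), midkine (Mdk) and 3 of their receptors, the receptor phosphatase gene Ptprz1 and the syndecan genes Sdc1 and Sdc3, were followed through every cell class of 2 single-cell libraries, each made from whole hearts of E11.5 mouse embryos. The 5 genes were taken by symbol from the 22401 features of the deposited matrices, and all 5 were measured. The set was chosen on the lower Ptn of the H2CKO endothelial-like and mesenchymal-like cells in an earlier look at these libraries, so that difference is a description and supports nothing. The Control embryos had the genotype Hand2fx/+ R26RmTmG/wt and no Cre. The H2CKO embryos had the genotype Nfatc1Cre/wt Hand2fx/fx R26RmTmG/wt, so Hand2 was deleted where the Nfatc1 driver had been active, mainly in the endocardium and in the cells descended from it. Both genotypes carried 1 mTmG reporter, which switches from Tomato to GFP once Cre has acted. The sex of the embryos, and the number behind each library, are not in the labels. There was 1 library per genotype, so the libraries, the presence of Cre and the loss of Hand2 cannot be told apart. No p-value was computed, and every difference below is between these libraries.

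Pleiotrophin and midkine are the members of a small family of secreted growth factors that bind the sulphated sugar chains of proteoglycans. The phosphatase PTPRZ1 is a chondroitin sulphate proteoglycan, and binding of either ligand lowers its activity, so that its substrates keep their tyrosine phosphates. Syndecans carry heparan sulphate chains that also hold these ligands at the cell surface. Both ligands are widely made in embryonic mesenchyme and epithelia. HAND2 is a basic helix-loop-helix transcription factor needed in the endocardium of the developing ventricle.

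The matrices held 14114 control and 13885 H2CKO barcodes, with 195825720 and 201477256 UMIs, the distinct molecules counted. Filtering left 8707 control cells with a median of 16200 UMIs and 11534 H2CKO cells with a median of 13430. The libraries shared 57 barcode sequences, 28 of them among the kept cells. Levels are given in CPM, the UMIs of a gene scaled to the total UMIs of the same class and library, with exact Poisson 95% intervals that cover counting error only. Because the chemistry reads transcript ends, a level is a share of molecules and needs no correction for transcript length. The clusters fell into 6 named classes and 2 unnamed clusters, each called by 2 of its leading genes, Rspo3 and Masp1 for the first and Tcf21 and Lsp1 for the second. The first had all 12 cardiomyocyte markers in at least 10% of its cells in both libraries, so the cardiomyocyte-like class does not hold every cell with these markers. All 5 genes were left out of the clustering, as were Hand2 and the reporters. The labels held up in the target cells: Hand2 was at 229 CPM in 365 control endothelial-like cells and 11.3 CPM in 750 H2CKO ones, and GFP at 15.9 and 1189.5 CPM.

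Ptn (ENSMUSG00000029838) lies on the minus strand of chr6:36714929-36810220 in GRCm38. It carried the widest difference between the libraries, so the 209 bases before its outermost annotated start are shown, from the RefSeq promoter table for GRCm38.p6 (minus strand, chr6:36810221-36810429). Basic helix-loop-helix factors bind E-boxes, here CANNTG read on both strands. The window held 0 matches to it, and so nothing is in capitals, whereas 60.5% of 32851 promoter windows of the same length held at least 1. This says only that these letters are not in this window.
Ptn upstream: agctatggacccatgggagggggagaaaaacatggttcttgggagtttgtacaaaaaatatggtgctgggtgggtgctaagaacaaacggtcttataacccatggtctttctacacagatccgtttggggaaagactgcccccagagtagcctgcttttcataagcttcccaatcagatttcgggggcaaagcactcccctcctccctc

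In the control library Ptn was highest in epicardial-like cells. Epicardial-like cells stood at 2847 CPM (95% interval 2815 to 2878, 686 cells) and the cluster of Tcf21 and Lsp1 at 2531 CPM (2463 to 2601, 135 cells), and every one of these cells held a Ptn UMI. Mesenchymal-like cells followed at 578 CPM (568 to 588, 1602 cells), then endothelial-like cells at 176 CPM (166 to 187). Ptn was at 74.2 CPM in the cluster of Rspo3 and Masp1, at 40.2 CPM in cardiomyocyte-like cells and at 6.25 CPM in erythroid-like cells. White blood cell-like cells read 74.3 CPM (59.6 to 91.5), not apart from the cluster of Rspo3 and Masp1, and 73 of their 88 UMIs lay in 1 cell of 69. Apart from that pair, no neighbours in this order had intervals that overlapped. Epicardial-like cells were 7.88% of the control cells and held 58.5% of the 53655 Ptn UMIs.

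The H2CKO library kept the epicardial-like cells on top, at 2017 CPM (1964 to 2071, 224 cells), with the cluster of Tcf21 and Lsp1 at 1594 CPM (1523 to 1667, 100 cells). Mesenchymal-like cells were at 237 CPM (228 to 246, 1079 cells). The cluster of Rspo3 and Masp1 now took the fourth place at 83.3 CPM (77.2 to 89.7), above endothelial-like cells at 20.8 CPM (18.03 to 23.96). Cardiomyocyte-like cells at 16.4 CPM (15.5 to 17.4) and white blood cell-like cells at 14.4 CPM (9.32 to 21.3) did not differ beyond their intervals, and 22 of the 25 white blood cell UMIs again lay in 1 cell. Erythroid-like cells were at 1.98 CPM. Epicardial-like cells were 1.94% of the H2CKO cells, and their share of the 12375 Ptn UMIs was 44.4%. In these libraries a lower share of a cell class and a lower level per class therefore both entered the total of Ptn.

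**Figure D1:**
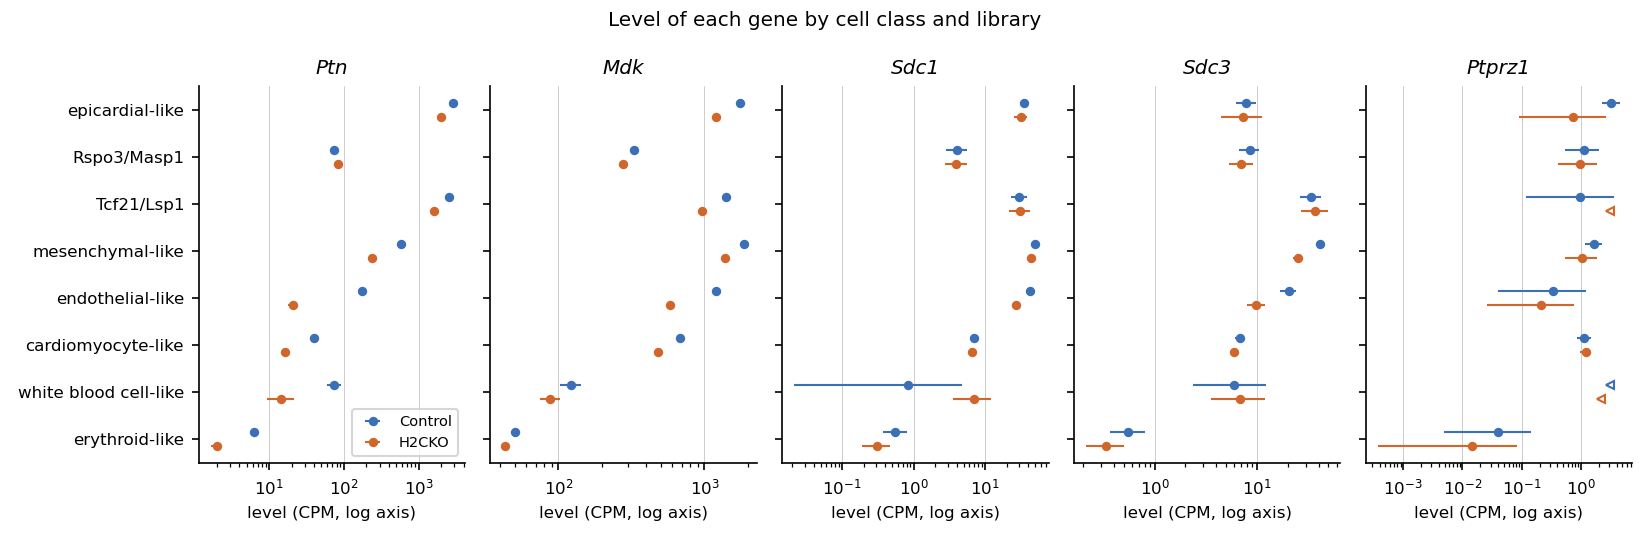
Level of each gene in CPM (log axis, which differs between panels) by cell class, with exact Poisson 95% intervals; blue points are the control library and orange points the H2CKO library. An open triangle marks the upper end of the interval where no UMI was counted. The 2 Ptn points of endothelial-like cells, at 176 and 20.8 CPM, are the farthest apart of the Ptn pairs, and Ptprz1 stays below 5 CPM throughout.

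Endothelial-like cells had the widest difference in Ptn. The library sums were 1055 UMIs in 365 control cells and 197 UMIs in 750 H2CKO cells, and the levels of 176 and 20.8 CPM gave a ratio of 0.118 (exact conditional 95% interval 0.101 to 0.138), or 8.45-fold lower in H2CKO. On the scale used across genes, the log2 ratio of CPM plus 5, this was -2.81. Counted from the lowest, it had rank 4 among the 6546 genes with at least 20 CPM and 20 UMIs in the higher library, and Hand2 had rank 2. The median tested gene of the class was at -0.29, so Ptn lay 2.52 below it. Of the 5 genes, 4 passed the minimum in endothelial-like cells and 2, Ptn and Mdk, were at least 2-fold lower, beside 7.68% of all tested genes.

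The difference in Ptn was both in how many endothelial-like cells held it and in how much the fullest cells held. A Ptn UMI was found in 38.6% of control cells (Clopper-Pearson interval 33.6 to 43.8) and in 13.7% of H2CKO cells (11.3 to 16.4). In cells thinned to 5000 UMIs the shares were 27.6% and 7.96%. Erythroid-like cells, taken to lack the gene, held one in 9.99% and 2.64% of cells at medians of 18351 and 13224 UMIs, and in 3.18% and 0.981% when thinned, so the endothelial-like shares lay above this background in both libraries. At least 10 Ptn UMIs were found in 35 of 365 control cells (9.59%) and in 3 of 750 H2CKO cells (0.400%). The 10% of cells with most Ptn held 68.6% of the class's Ptn UMIs in the control and 85.8% in H2CKO, and the highest single cell held 77 and 11.

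**Figure D2:**
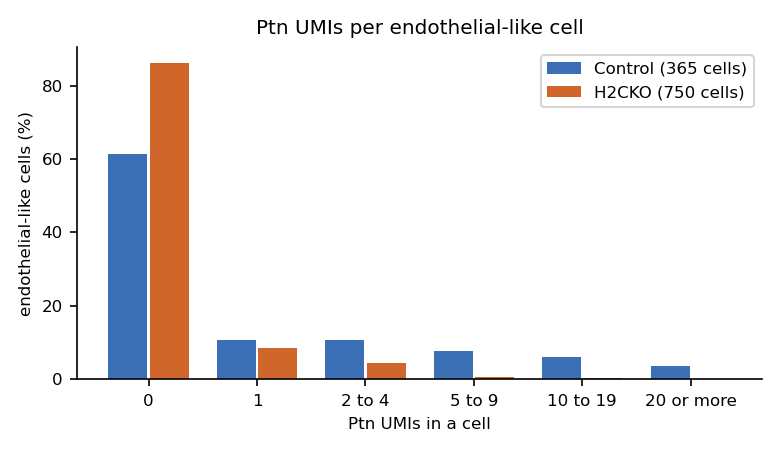
Share of endothelial-like cells (%) by the number of Ptn UMIs in a cell, for the control (blue, 365 cells) and H2CKO (orange, 750 cells). Cells without a Ptn UMI were 61.4% of the control and 86.3% of H2CKO, and cells with 20 or more were 3.56% and 0%.

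Other measures moved beside Ptn in these cells. The summed level of the 12 mesenchymal markers was 3367 CPM in the control, with 11 of them in at least 10% of cells, and 1033 CPM in H2CKO, with 8; none of the 12 was at 0 in either library. The 10 epicardial markers summed to 66.2 and 23.7 CPM, none of them reached 10% of cells in either library, and 1 was at 0 in H2CKO. The 9 erythroid markers summed to 15673 and 42354 CPM. The 9 neural crest and neuron markers summed to 551 and 195 CPM, with 3 and then 1 in at least 10% of cells, and 4 and 3 of them at 0. In cells without any UMI of an epicardial marker, Ptn was at 174 CPM (269 cells) in the control and 21.2 CPM (619 cells) in H2CKO, and in the other cells at 180.1 CPM (96 cells) and 19.6 CPM (131 cells). The part of these markers in the Ptn result was not tested.

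Within the endothelial-like class, 3 subclusters of at least 50 cells in each library were told apart without using any of the 5 genes. Subcluster 3, led by Kcne3, Igfbp3, Clec1b and Fabp4, had Ptn at 419 CPM in 61 control cells and 15.5 CPM in 161 H2CKO cells, a log2 ratio of -4.37. The rest of its 10 leading genes were the cell-cycle genes Pbk, Cenpf, Pimreg, Plk1, Ccnb1 and Pclaf. Subcluster 2, led by Nr2f2 and Emcn, had 269 CPM in 84 cells and 25.8 CPM in 301 cells, a log2 ratio of -3.15. Subcluster 1, led by Wnt4 and Stmn2, had the lowest control level, 77.5 CPM in 214 cells, and 23.5 CPM in 255 cells, a log2 ratio of -1.53. The control levels thus spread from 77.5 to 419 CPM and the H2CKO levels only from 15.5 to 25.8 CPM. Hand2 was low in all 3 in H2CKO, at 8.404, 14.3 and 13.9 CPM in subclusters 1, 2 and 3, against 261, 218 and 167 CPM in the control. GFP in H2CKO was at 1713, 909 and 1117 CPM in the same order, so the subcluster with most GFP had the smallest difference in Ptn. For subcluster 1, the mesenchymal list had the highest median fold over the other endothelial-like cells of all marker lists, with 9 of its 12 markers in at least 10% of cells. At least 2-fold lower were 214 of 6631 tested genes in subcluster 1 and 733 of 6393 in subcluster 2. In subcluster 3 they were 568 of 6409, and Ptn was among them in each. In subcluster 1, however, 77 of the 284 control Ptn UMIs lay in 1 cell, and the 21 cells with most Ptn held 92.6%. In thinned cells its Ptn was at 44.1 CPM in the control and 26.7 CPM in H2CKO, less than 2-fold apart. A Ptn UMI was then in 9.804% and 8.44% of its cells. Thinned, Ptn stood at 263 and 28.5 CPM in subcluster 2 and at 383 and 15.1 CPM in subcluster 3. Subcluster 1 made up 214 of 365 control cells but 255 of 750 H2CKO cells, so the ratio of the whole class also carries a change in its mix. The 12 mesenchymal markers summed to 4298 and 2063 CPM in subcluster 1, to 2158 and 595 CPM in subcluster 2 and to 1632 and 512 CPM in subcluster 3 of the control and H2CKO. Their part in the Ptn values was not tested. In 4 alternative settings the class held 96 to 124 control cells and the log2 ratio lay between -4.09 and -3.49.

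Mesenchymal-like cells also held less Ptn in H2CKO. It was counted 12850 times in 1602 control cells and 2701 times in 1079 H2CKO cells, which at 578 and 237 CPM was 2.44-fold lower (2.34 to 2.54), a log2 ratio of -1.27 and rank 46 of 6535 tested genes from the lowest. The median tested gene was at -0.24. Of the 4 genes that passed the minimum here, Ptn alone was at least 2-fold lower, beside 3.58% of tested genes, and it fell short of 2-fold, at -0.93, once a trend with gene span was taken out. The share of cells with a Ptn UMI was 89.6% in the control and 64.6% in H2CKO, and 74.4% and 49.9% after thinning. Hand2 was 181 CPM in the control and 47.01 CPM in H2CKO in this class, and the 12 mesenchymal markers, all in at least 10% of cells in both libraries, summed to 8228 and 4115 CPM. The 9 erythroid markers summed to 10040.1 and 51882 CPM, none at 0 in either library, and without the haemoglobin-led subcluster the log2 ratio of Ptn was -1.18. The part of these markers in the Ptn result was not tested.

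The mesenchymal-like difference was unequal among the subclusters, which also differed in the reporter. Subcluster 1, led by Btn1a1 and Ppp1r14c, had Ptn at 848 CPM in 507 control cells and 181 CPM in 349 H2CKO cells, a log2 ratio of -2.20. Subcluster 2, led by histone and mitosis genes, had 657 and 176 CPM, a log2 ratio of -1.87. In H2CKO these 2 subclusters had GFP at 1451 and 1439 CPM and Hand2 at 16.9 and 9.51 CPM.

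In contrast, subcluster 3, led by Stmn4 and Inhba, had Ptn at 363 CPM in the control and 329 CPM in H2CKO, a ratio of 0.904 (0.8198 to 0.997). Subcluster 4, led by Penk and Fbln5, had 399.8 and 389 CPM, a ratio of 0.972 (0.898 to 1.05). For both, the smooth muscle list had the highest median log2 fold over the other mesenchymal-like cells of all marker lists, 1.20 and 0.99. Tagln was among the leading genes of each, so these 2 subclusters may also differ from subclusters 1 and 2 in cell type. GFP was at 71.98 and 75.9 CPM in H2CKO in subclusters 3 and 4, and Hand2 at 83.8 and 114 CPM against 180.4 and 188 CPM in the control. In the control, subclusters 1 and 2 held more Ptn than subclusters 3 and 4, and in H2CKO they held less. The share of all tested genes at least 2-fold lower was 6.73%, 4.40%, 3.72% and 1.99% in subclusters 1 to 4. Their mesenchymal markers summed to 8715, 8421, 8002 and 7969 CPM in the control and 3775, 4036, 4844 and 5218 CPM in H2CKO, lower in H2CKO in all 4. Their part in the Ptn values was not tested. Subcluster 5, led by haemoglobin genes, had Ptn at 375 CPM in 21 control cells and 125 CPM in 73 H2CKO cells, with GFP at 239 CPM in H2CKO. With 1 library per genotype the difference between subclusters could not be tested.

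**Figure D3:**
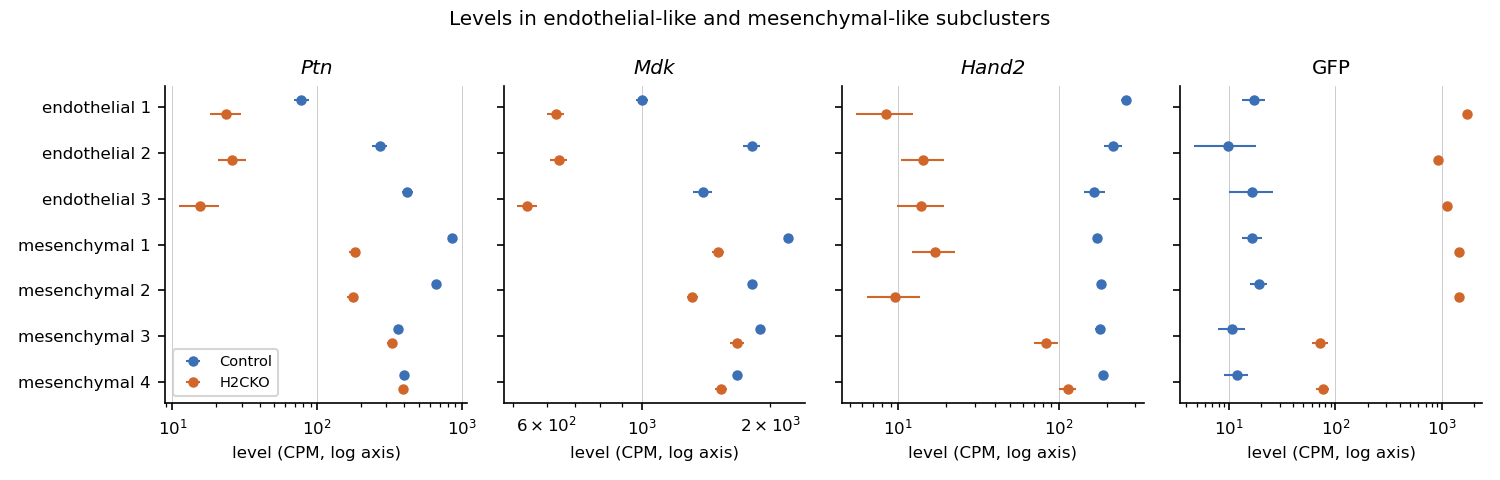
Levels of Ptn, Mdk, Hand2 and GFP (CPM, log axes) in 3 endothelial-like and 4 mesenchymal-like subclusters of the control (blue) and H2CKO (orange), with exact Poisson 95% intervals. The libraries' Ptn points lie apart in the 5 subclusters with H2CKO GFP of at least 909 CPM, and close together in mesenchymal subclusters 3 and 4, where GFP is at most 75.9 CPM.

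Cells of the H2CKO library were also split by whether they held a GFP UMI, which does not tell switched cells cleanly. In the control, which has no Cre, 17.1% of mesenchymal-like and 21.6% of endothelial-like cells held one, against 37.9% and 70.4% in H2CKO. In cells thinned to 5000 UMIs these shares were 7.47% and 6.105% in the control and 33.7% and 68.3% in H2CKO. Mesenchymal-like cells without a GFP UMI had Ptn at 267 CPM and those with at least 1 had 188 CPM, a ratio of 0.704 (0.647 to 0.764). A GFP UMI is more easily seen in a deep cell, and in cells thinned to 5000 UMIs the levels were 272 and 164 CPM. Hand2 was at 62.9 and 21.2 CPM in the same unthinned cells. Endothelial-like cells had Ptn at 19.4 CPM in 222 cells without a GFP UMI and 21.3 CPM in 528 cells with one, a ratio of 1.098 (0.785 to 1.56), while Hand2 was at 20.7 and 8.19 CPM. Thinned, these cells had Ptn at 18.3 and 26.7 CPM, a ratio of 1.46 (0.872 to 2.55). Hand2 was then at 14.6 and 7.203 CPM, a ratio of 0.493 whose interval of 0.234 to 1.04 held 1. The part of background GFP UMIs and of the subclusters in these values was not tested.

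Ptn was also lower in epicardial-like cells of H2CKO, by a size that varied with the cells counted. These cells, at 2847 and 2017 CPM, had a log2 ratio of -0.50, and the cluster of Tcf21 and Lsp1, at 2531 and 1594 CPM, had -0.67, both short of 2-fold. With doublets kept, the epicardial-like class held 1262 control and 575 H2CKO cells and Ptn was at 1578 and 772 CPM, a log2 ratio of -1.03. In the cells of the deposited embedding it held 938 and 410 cells and Ptn was at 1775 and 715 CPM, a log2 ratio of -1.30. The 9 erythroid markers summed to 9084 and 41337 CPM in epicardial-like cells and to 11765 and 39356 CPM in the cluster of Tcf21 and Lsp1, and the 12 cardiomyocyte markers to 4247 and 8838 CPM in epicardial-like cells. None of these markers was at 0 there, and their part in the Ptn values was not tested. The median tested gene was at -0.21 in epicardial-like cells, where Ptn, Mdk and Sdc1 passed the minimum, none at least 2-fold lower, beside 4.66% of genes. Epicardial-like cells had Hand2 at 125 and 113 CPM and GFP at 9.06 and 60.5 CPM in the control and H2CKO. The cluster of Tcf21 and Lsp1 had Hand2 at 119 and 109 CPM and GFP at 8.31 and 66.5 CPM, with 55 of its 79 H2CKO GFP UMIs in 1 cell. The cluster of Rspo3 and Masp1 went the other way, with 74.2 CPM in the control and 83.3 CPM in H2CKO, a ratio of 1.12 (1.01 to 1.25).

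In cardiomyocyte-like cells Ptn was low, at 40.2 CPM in the control and 16.4 CPM in H2CKO, a log2 ratio of -1.08, beside 0.492% of 5492 tested genes at least 2-fold lower. Hand2 was at 74.7 and 72.7 CPM and GFP at 9.42 and 9.29 CPM in this class. The erythroid markers summed to 13312 and 23871 CPM, the 6 smooth muscle markers to 4135 and 2739 CPM, the mesenchymal markers to 495 and 326 CPM and the 11 white blood cell markers to 8.79 and 48.3 CPM. Their part in the Ptn value was not tested. The class held 3 clusters. In the shallow one, with 1049 control and 251 H2CKO cells and medians of 1530 and 1617 UMIs per cell, Ptn was at 254 and 56.2 CPM. In the cluster of 211 control and 168 H2CKO cells it was at 56.7 and 23.7 CPM, a log2 ratio of -1.11, and in the main one, with 1543 and 3375 cells, at 23.3 and 15.6 CPM, a log2 ratio of -0.46. Without the shallow cluster, Ptn was at 26.2 and 15.9 CPM, a log2 ratio of -0.58. The mean of per-cell CPM gave a log2 ratio of -2.44. Under a stricter filter, 1500 genes or more and no more than 5% mitochondrial UMIs, the class held 1405 control and 430 H2CKO cells, and the direction turned, with 34.4 and 83.7 CPM and a log2 ratio of 1.17. Ptn was lower in 13 of 14 alternatives, that filter being the exception. It was past 2-fold in size in 8 of the 14, that filter with its opposite sign among them.

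**Figure D4:**
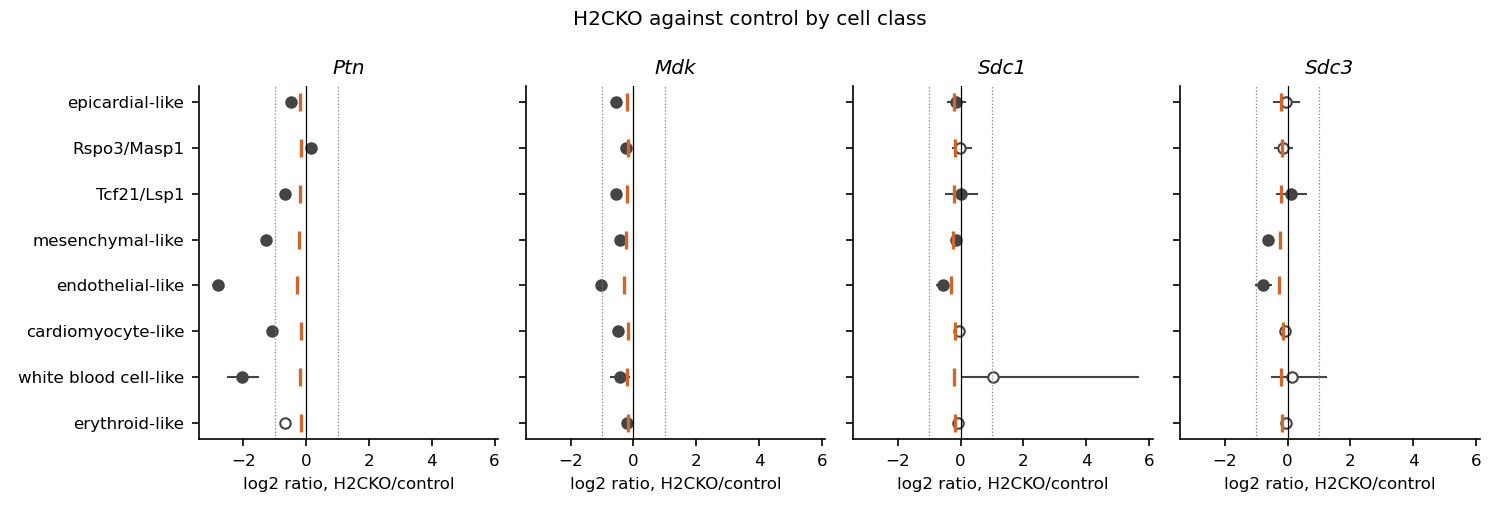
Log2 ratio of CPM plus 5 (H2CKO over control) by cell class for Ptn, Mdk, Sdc1 and Sdc3; lines are exact conditional 95% intervals of the ratio carried to this scale, open points are genes under the minimum level, orange ticks are the median of all tested genes, and dotted lines mark 2-fold. Ptn in endothelial-like cells, at -2.81, lies farthest from its tick among the filled points.

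Mdk (ENSMUSG00000027239, minus strand of chr2:91929805-91932297) was spread through more classes than Ptn. In the control it was at 1869 CPM in mesenchymal-like cells, 1756 CPM in epicardial-like cells, 1399 CPM in the cluster of Tcf21 and Lsp1 and 1208 CPM in endothelial-like cells. It was at 682 CPM in cardiomyocyte-like cells, 328 CPM in the cluster of Rspo3 and Masp1, 121 CPM in white blood cell-like cells and 50.5 CPM in erythroid-like cells. No neighbours in this order had overlapping intervals, and the order in H2CKO was the same, at 1380.2, 1201, 962, 583, 480.3, 276, 88.1 and 42.97 CPM. All 8 classes were thus lower in H2CKO.

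Among the classes, endothelial-like cells again had the widest difference. Mdk was counted 7237 times in the control and 5509 times in H2CKO, and the levels, 1208 CPM (1179.9 to 1236) and 583 CPM (567 to 598), were 2.07-fold apart (2.001 to 2.15), a log2 ratio of -1.04. It ranked 422 of 6546 from the lowest and lay 0.76 below the median tested gene, so it is short of 2-fold once that median is taken out. Nearly every cell held it, 98.4% in the control and 94.0% in H2CKO, so the difference was in the amount per cell. Erythroid-like cells held an Mdk UMI in 56.1% and 40.6% of cells, and 22.3% and 18.5% when thinned, beside 96.5% and 87.99% of thinned endothelial-like cells.

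The endothelial-like subclusters differed in Mdk as well. Subcluster 2 went from 1812 to 639.6 CPM (log2 ratio -1.49), subcluster 3 from 1389 to 539 CPM (-1.36) and subcluster 1 from 1003 to 629 CPM (-0.67). The H2CKO levels of Mdk lay within 539 to 639.6 CPM, a narrower range than the control levels, as with Ptn.

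The Mdk difference was smaller in 3 other classes. The log2 ratio was -0.44 in mesenchymal-like, -0.55 in epicardial-like and -0.50 in cardiomyocyte-like cells, where the medians of tested genes were -0.24, -0.21 and -0.16. Within the last class, the shallow cluster had Mdk at 898 and 284 CPM, a log2 ratio of -1.64 that is wider than in endothelial-like cells. Its cells had medians of only 1530 and 1617 UMIs, beside 12680 and 10255 in endothelial-like cells, so the 2 are not alike in depth. Mesenchymal-like subclusters 1 and 2 were at -0.55 and -0.46, and subclusters 3 and 4 at -0.17 and -0.13. The medians of tested genes there were -0.22, -0.19, -0.14 and -0.13. The order was that of Ptn, but Mdk lay near these medians, at rank 1911 of 6466 in subcluster 1 and 2034 of 6552 in subcluster 2. The difference between subclusters was not tested. Under the same split by GFP UMI, with its background, Mdk in H2CKO stood at 1342 CPM in mesenchymal-like cells with a GFP UMI and 1404 CPM in those without, a ratio of 0.956 (0.925 to 0.988). In endothelial-like cells with and without a GFP UMI it stood at 558 and 657 CPM, a ratio of 0.8499 (0.801 to 0.902).

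Most cells that held Ptn also held Mdk where Mdk was in nearly every cell. In endothelial-like cells 38.4% of control cells and 13.5% of H2CKO cells held UMIs of both, and only 0.274% and 0.267% held Ptn without Mdk. In mesenchymal-like cells 89.4% and 64.4% held both. Since Mdk was in at least 94.0% of the cells of these classes, the shares follow those of Ptn. The sources of the ligands' transcripts differed between the libraries as well: of all Mdk UMIs, cardiomyocyte-like cells held 31.7% in the control and 53.6% in H2CKO, and mesenchymal-like cells 37.03% and 23.5%. These shares depend on how many cells of each class entered a library.

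Ptprz1 (ENSMUSG00000068748, plus strand of chr6:22875502-23052916), the phosphatase receptor, was close to absent at this depth. All kept cells together held 148 UMIs in the control and 114 in H2CKO. Its highest level was 3.26 CPM (2.29 to 4.52) in control epicardial-like cells, from 36 UMIs in 34 of 686 cells, and 2 UMIs in 224 cells gave 0.733 CPM (0.0888 to 2.65) in H2CKO. Cardiomyocyte-like cells held 59 and 89 UMIs, at 1.13 and 1.19 CPM, and mesenchymal-like cells 37 and 12, at 1.66 and 1.05 CPM. Endothelial-like cells held 2 UMIs in each library. White blood cell-like cells held none, and 3 counts would have been 2.53 CPM in the control and 1.73 CPM in H2CKO. Erythroid-like cells were at 0.0396 and 0.0146 CPM, below the epicardial-like level of the control. Ptprz1 passed the minimum in no class. In epicardial-like cells the ratio of H2CKO to control was 0.225, from 36 and 2 UMIs, with an interval of 0.0262 to 0.873 below 1. In the mesenchymal-, endothelial- and cardiomyocyte-like classes the interval of the ratio held 1, so a difference was not detectable there at this depth.

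The syndecan Sdc1 (ENSMUSG00000020592, plus strand of chr12:8771323-8793715) had its highest value in mesenchymal-like cells in both libraries, but not apart from every other class. The mesenchymal-like interval overlapped that of endothelial-like cells in the control. In H2CKO it overlapped that of the cluster of Tcf21 and Lsp1 (21.2 to 41.9 CPM). In mesenchymal-like cells the control level was 48.8 CPM (45.97 to 51.8) and the H2CKO level 44.1 CPM (40.3 to 48.1), and the ratio of 0.903 (0.811 to 1.01) held 1. Endothelial-like cells held 255 UMIs in each library, at 42.6 CPM (37.5 to 48.1) and 26.97 CPM (23.8 to 30.5), a ratio of 0.634 (0.531 to 0.757) and a log2 ratio of -0.57 beside the median of -0.29. Epicardial-like cells were at 34.8 and 31.2 CPM and the cluster of Tcf21 and Lsp1 at 29.8 and 30.3 CPM. Cardiomyocyte-like cells, the cluster of Rspo3 and Masp1 and erythroid-like cells were below 7 CPM in both libraries. Sdc1 was at least 2-fold lower in none of the classes.

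Sdc3 (ENSMUSG00000025743, plus strand of chr4:130792537-130826319) overlaps 2 annotated genes on the other strand, Gm12970 and Gm26716, and the sources used here do not say whether strand was used in counting. Control mesenchymal-like cells had 41.3 CPM (38.7 to 44.04) and their H2CKO counterparts 25.1 CPM (22.3 to 28.2), which is a log2 ratio of -0.62. The cluster of Tcf21 and Lsp1 was at 33.7 and 37.03 CPM, with intervals that overlapped. Endothelial-like cells had 122 and 93 UMIs, at 20.4 and 9.84 CPM, a ratio of 0.483 (0.365 to 0.638) and a log2 ratio of -0.77, short of 2-fold on the scale with 5 added. In endothelial-like subcluster 1, at 24.6 and 9.75 CPM, it was at least 2-fold lower, beside 3.23% of tested genes. In subclusters 2 and 3 the ratios were 0.586 (0.331 to 1.07) and 0.898 (0.435 to 1.96), and both intervals held 1. In the 4 settings with 96 to 124 control cells the endothelial-like log2 ratio of Sdc3 lay between -0.41 and -0.30. Among mesenchymal-like subclusters 1 to 4 the log2 ratio of Sdc3 was -0.53, -0.34, -0.65 and -0.61, without the spread that Ptn had there. Epicardial-like and cardiomyocyte-like cells stayed below 8 CPM in both libraries.

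Other genes of the pathway were read from 3 lists with 73 genes in all, which cover further receptors and binding partners, PTPRZ1 substrates and partners, and the enzymes that build or trim chondroitin and heparan sulphate. The lists were chosen with earlier results of these data known, so their counts and medians are a description only. In endothelial-like cells 31 were tested. None was at least 2-fold higher, beside 0.840% of all tested genes, and 9 were at least 2-fold lower, beside 7.68%, with a median log2 ratio of -0.74 beside -0.29 for all tested genes. The receptors and binding partners held 6 of the 9 (11 tested, median -1.01), the substrates 1 (10 tested, median -0.54) and the sugar chain genes 2 (10 tested, median -0.65). Centred on the median tested gene, 4 of the 31 were past 2-fold, and 5 after a trend with gene span was taken out. The 7.68% belongs to the main setting, and the share of all tested genes in these other settings is not given here, so these counts have no background beside them.

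The widest of these was Vcan, which encodes the chondroitin sulphate proteoglycan versican of the cardiac jelly and is also among the mesenchymal markers, at 1034 and 173 CPM (log2 ratio -2.55). Chsy1, a chondroitin chain synthase, was at 66.1 and 13.9 CPM (-1.91), and Sulf2, which removes sulphate groups from heparan chains outside the cell, at 50.1 and 15.5 CPM (-1.42). The integrin chains Itgav and Itgb1 were at 43.2 and 13.9 CPM (-1.35) and at 673 and 299 CPM (-1.16). The adhesion molecule Cdh2 was at 24.4 and 7.19 CPM (-1.27), the Wnt co-receptor Lrp6 at 61.2 and 23.2 CPM (-1.23), the syndecan Sdc4 at 24.2 and 9.096 CPM (-1.05) and the phosphatase Ptprg at 44.6 and 19.6 CPM (-1.01). Ptn, at -2.81, lay below each of these genes.

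In mesenchymal-like cells 40 list genes were tested, 5 were at least 2-fold lower (3.58% of all tested genes) and none higher (0.474%), with a median of -0.60 beside -0.24. They were Vcan (2967 and 1114 CPM), the integrin chain Itga4 (299 and 115 CPM), Cdh2 (207 and 81.4 CPM), Itgb1 (836 and 397 CPM) and Chsy1 (94.03 and 43.9 CPM). Vcan, Itgb1, Cdh2 and Chsy1 were thus past 2-fold in both classes. In epicardial-like cells 39 were tested 6 were at least 2-fold lower (4.66% of all tested genes) and none higher (1.53%), with a median of -0.53 beside -0.21. These were Sulf1 (200.4 and 78.1 CPM), Itgav (47.4 and 18.3 CPM), the heparan sulphotransferases Hs6st1 (53.2 and 22.0 CPM) and Hs6st2 (87.3 and 41.1 CPM), Nrp1 (242 and 113 CPM) and Notch2 (25.5 and 9.53 CPM). In cardiomyocyte-like cells 26 were tested, none was past 2-fold in either direction (0.492% of all tested genes lower and 0.237% higher), and the median was -0.43 beside -0.16.

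The genes whose levels followed Ptn most closely over the 11 control clusters of at least 50 cells were Acot1, Col1a1, Nrk, S100a11 and Tcf21, with Pearson correlations of 0.969, 0.964, 0.960, 0.959 and 0.959 on log2 of CPM plus 5. Over 12 H2CKO clusters the same genes had 0.949, 0.967, 0.919, 0.902 and 0.958. Those closest to Mdk were Ift74, Rbms2, H2afy2, Fndc4 and H1fx, at 0.981, 0.978, 0.978, 0.977 and 0.974 in the control, and at 0.966, 0.976, 0.981, 0.973 and 0.955 in H2CKO. Ptn and Mdk had a correlation of 0.827 with each other in the control and 0.826 in H2CKO. The clusters of a library share its depth and free RNA, and Col1a1 and Tcf21 are among the markers used to name the classes.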

How the data were processed

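Per the labels' protocols, embryos were kept on ice for about 3 h, hearts were dissociated with TrypLE, and 10x Genomics 3′ libraries were sequenced. Reporter fluorescence told which embryos carried Cre. The authors deposited raw UMI counts as 1 matrix for each library (barcodes in columns, Ensembl IDs in lines), plus an embedding whose coordinates are a score without a unit. The submitters' processing notes name Cell Ranger 5.0.1, Seurat 4 and GRCm38.p6. Whether strand was used in counting is not given in the sources used here.

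A cell needed 500 genes and no more than 10% mitochondrial UMIs. Scrublet (scanpy 1.11.5) removed 1134 of 9841 control cells by its automatic threshold. In H2CKO it marked 1 cell, so the highest 5% of scores were removed. Cells were clustered on 2000 variable genes, 30 components and 15 neighbours per library (Leiden, leidenalg 0.10.2, resolution 1), which gave 14 clusters. Names came from 11 marker lists, with at least 3 markers in at least 10% of cells and no more markers of another list than of its own among the 10 leading genes. A cluster with no marker of its own among them also stayed unnamed unless at least 10 markers were detected, a rule added after the data were seen. Subclusters used resolution 0.5, also chosen then. Of the 22401 features, 22285 matched the name table; 16 carried a shared symbol and were renamed.

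UMIs were summed per class and library. Genes with at least 20 CPM and 20 UMIs in the higher library were tested for size, and past 2-fold means a log2 ratio of CPM plus 5 of at least 1 in size. Intervals are 95% exact Poisson, Clopper-Pearson or exact conditional (scipy 1.17.1). The script was tested on simulated data. Named genes are the 5 genes, the 5 closest to each ligand, and list genes past 2-fold in the 4 classes described. The list genes B3gat3 and Fyn, not past 2-fold, are named besides these in the last section. Members and lists were chosen with earlier results of these data known. Alternatives changed the cell filter, doublets, clustering, naming, depth, scaling, pseudocount, minimum level and gene span.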

Additional observations from a re-analysis of the deposited data

Results flagged for a closer look

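Ptn in the cluster of Rspo3 and Masp1 had a log2 ratio of 0.16 (74.2 CPM in the control and 83.3 CPM in H2CKO), where the log2 ratio was below 0 in each of the other 7 classes and clusters, although that of cardiomyocyte-like cells turned under a stricter cell filter. It stands out because the library of 1 genotype moved one way here and the opposite way elsewhere, and the difference between classes was not tested. The 12 cardiomyocyte markers summed to 65439.9 CPM in the control and 56915 CPM in H2CKO here, beside 53477 and 49180.2 CPM in cardiomyocyte-like cells. By these markers the cluster is close to that class. GFP was at 13.6 and 13.3 CPM in this cluster, and Hand2 at 122 and 87.3 CPM.

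Sdc1 in white blood cell-like cells had a log2 ratio of 1.03, against values near or below 0 in the other classes and clusters. It came from 1 UMI in 69 control cells and 12 UMIs in 107 H2CKO cells, a ratio of 8.19 (exact conditional 95% interval 1.21 to 350.1), and was under the minimum level. The class was mixed: its megakaryocyte markers summed to 2497 CPM in the control and 785 CPM in H2CKO, and its white blood cell markers to 3412 and 3115 CPM. The part of this mix in the values of the class was not tested. The difference between classes was not tested.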

How the results depend on the processing

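Ptn in endothelial-like cells, at -2.81, stayed at least 2-fold lower in the 13 settings that changed cells, clustering, naming, depth or scaling. The stricter cell filter gave -4.09, doublets kept -2.59, resolution 2 -3.80, neighbours not balanced between libraries -3.98, naming by each cell's own markers -2.48 and the cells of the deposited embedding -3.49. The class held 109 control cells under the stricter filter, 120 at resolution 2, 96 unbalanced and 124 in the embedding, in place of 365. Thinned cells gave -2.42, centring on the median gene -2.52, CPM plus 1 -3.02, the mean of per-cell CPM -2.48 and the trend on gene span taken out -2.49. Subclusters 1 to 4 gave -1.53, -3.15, -4.37 and -3.17, the last led by haemoglobin genes with 6 control cells, and leaving out the 10% of cells with most Ptn gave -3.08, which is no sign of stability because those cells were chosen by their Ptn. In mesenchymal-like cells, at -1.27, Ptn gave -1.40 with doublets kept, -1.15 by own markers, -1.39 thinned, -1.02 centred, -1.40 by per-cell means and -0.93, short of 2-fold, with the span trend out. Subclusters 1 to 5 gave -2.20, -1.87, -0.14, -0.04 and -1.55, and leaving out the haemoglobin-led subcluster -1.18. Ptn in cardiomyocyte-like cells, at -1.08, reversed to 1.17 under the stricter cell filter and went to -2.44 by per-cell means and -1.82 in the embedding's cells. It was short of 2-fold in settings that include resolution 0.5 (-0.40), unbalanced (-0.58), own markers (-0.76) and centred (-0.92). In epicardial-like cells, at -0.50, Ptn ranged from -1.30 to -0.14 and was past 2-fold in 2 of 13 alternatives. Mdk in endothelial-like cells, at -1.04, gave -1.69 under the stricter filter, -1.49 at resolution 2, -1.53 unbalanced, -1.47 in the embedding's cells, -0.76 centred and -1.40 with the span trend out, and -0.67, -1.49, -1.36 and -1.37 in subclusters 1 to 4. Mdk in mesenchymal-like cells, at -0.44, gave -0.41 by own markers, -0.35 in the embedding's cells, -0.19 centred, -0.75 with the span trend out, -0.55, -0.17 and -0.13 in subclusters 1, 3 and 4, and -0.35 without the haemoglobin-led subcluster. Sdc3 in endothelial-like cells, at -0.77, ranged from -0.98 to -0.30. The 9 pathway genes past 2-fold in endothelial-like cells became 4 when centred, 5 with the span trend out and 2 with a minimum of 100 CPM, where 11 were tested. They became 13 under the stricter filter (33 tested) and with no minimum (59 tested). They became 12 with doublets kept (33 tested), unbalanced (32 tested) and with CPM plus 1 (31 tested), and 11 at resolution 2 and in the embedding's cells. The share of all tested genes past 2-fold in each of these settings is not given here, so these counts have no background beside them. In cells thinned to 5000 UMIs the share with a Ptn UMI was 27.6% and 7.96% in endothelial-like cells of the control and H2CKO and 74.4% and 49.9% in mesenchymal-like cells, the share with an Mdk UMI in H2CKO endothelial-like cells was 87.99%, and the log2 ratio of Ptn in GFP cells over the others in mesenchymal-like cells was -0.71, from -0.50. The cause of these shifts was not tested, except that thinning and a higher minimum leave fewer UMIs and genes. All endothelial-like cells formed 1 cluster, so pooling their clusters was the same as the main setting. No paired analysis was possible because each genotype has 1 library. Subclusters, the cells left out and the naming rule were chosen after seeing the data. Depth limits Ptprz1 in every class and the syndecans in the small ones.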

Other observations

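B3gat3, which encodes an enzyme that completes the linker on which both chondroitin and heparan chains are built, was named after its values were seen. It stood at 36.7 CPM in control and 47.5 CPM in H2CKO endothelial-like cells (log2 ratio 0.33), and at 45.1 and 54.6 CPM in mesenchymal-like cells (0.25), while the list medians were -0.65 and -0.43 there. Of the PTPRZ1 partners, the kinase gene Fyn stood at 105 CPM in endothelial-like cells of each library (0.01).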
